A study of Mus musculus with 8 samples.

Results

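The m6A immunoprecipitation (IP) of BPA-exposed TM3 cells was compared with that of normal TM3 cells at every differential m6A peak the authors listed, 3331 of 3331 peaks in 2295 genes, with the input left out. TM3 is an established mouse line described as Leydig cells, which make testosterone between the testis tubules. BPA, bisphenol A, is a plastics monomer with weak estrogen-like activity. The study had 8 libraries in 4 groups, BPA MeRIP, normal MeRIP, BPA RNA-seq and normal RNA-seq, with 2 libraries in each; no genetic change, dose, exposure time or vehicle was given. The authors pooled the 2 MeRIP libraries of each condition into 1 value per peak, so an IP difference had no replicate check and no test.

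N6-methyladenosine (m6A) is the commonest internal modification of mRNA. Writer enzymes built around Mettl3 and Mettl14 place it, demethylases such as Alkbh5 and Fto remove it, and reader proteins such as the Ythdf and Ythdc families bind it and alter splicing, translation or decay of the RNA. MeRIP-seq fragments RNA and sequences the pieces that an m6A antibody pulls down. The IP value of a peak rises with the amount of that RNA as well as with its methylation, and the IP columns alone cannot tell these apart. In bulk libraries, fewer cells carrying an RNA and less of it per cell cannot be told apart either.

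The cell label was checked against markers. Of 14 Leydig cell markers, 4 had a row in the RNA-seq count table (Gata4, Nr2f2, Pdgfra and Vcam1), with a summed level of 945 to 1290 CPM (counts scaled to library size) in normal and 1220 and 1300 CPM in BPA libraries. The defining steroidogenic markers Star and Cyp11a1 had no row and no peak, so the label rests here on markers that other stromal cells share. Of 12 Sertoli cell markers 6 had a row, with 559 and 995 CPM in normal and 757 and 772 CPM in BPA libraries. Ctsl, a lysosomal cathepsin, alone had 8484 of 10403 of these reads in normal library 1 and 1843 of 4200 in normal library 2. It had 4393 of 6805 in BPA library 1 and 4054 of 4775 in BPA library 2. Macrophage markers (3 of 9 with a row) summed to 12.1 and 20.1 CPM in normal and 20.6 and 69.2 CPM in BPA libraries. Smooth muscle and endothelial markers (3 of 10) summed to 7.75 and 59.7 CPM in normal and 56.8 and 201 CPM in BPA libraries. The only germ cell marker with a row, Stra8, was at 0 reads in 3 libraries and at 30 reads in BPA library 2. The part of these levels in the IP differences was not tested.

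Levels are in RPM as deposited, that is reads scaled to a total for each pooled column. The difference of a peak is log2((BPA IP + 1)/(normal IP + 1)). The listed peaks held 4462680 of the 5402180 reads behind the scale in normal IP and 3430467 of 3908360 in BPA IP. A shift shared by most peaks would thus be largely scaled away. The median difference and the balance of higher and lower peaks are relative to these totals. The median peak had 190.1 RPM in normal IP and 200.1 RPM in BPA IP, and the median log2 difference was 0.18, with 1805 peaks above 0 and 1526 below. In BPA IP 557 peaks in 486 genes were at least 4-fold higher, which was 16.7% of all peaks, and 481 peaks in 447 genes were at least 4-fold lower, which was 14.4%. Another 845 peaks in 723 genes, 25.4%, were within 1.5-fold, and the remaining 1448 peaks lay between these ranges. These 3 shares are the background for every group of genes below, and each value given for a gene is that of 1 peak, since other peaks of the gene may differ.

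The peaks past 4-fold fell into a near group and a far group, with few peaks in the middle. Of the higher peaks, 264 were 4- to 16-fold higher, 36 were 16- to 64-fold higher, and 257 were at least 64-fold higher. Of the lower peaks, 104 were 4- to 16-fold lower, 19 were 16- to 64-fold lower, and 358 were at least 64-fold lower. The far higher peaks had a median of 0.19 RPM in normal IP, which was 1 read, and 336.5 RPM in BPA IP. The far lower peaks had a median of 291.6 RPM in normal IP and 0.26 RPM in BPA IP, again 1 read. The far peaks were thus at an ordinary level in one condition and at or near 0 in the other. Of the 557 higher peaks, 246 had 3 or fewer reads in normal IP (121 of them none), and of the 481 lower peaks, 346 had 3 or fewer in BPA IP (175 of them none). The near peaks kept signal in both conditions, with medians of 56.92 and 368.1 RPM for the near higher peaks and 471.6 and 73.31 RPM for the near lower ones, normal before BPA.

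**Figure D1:**
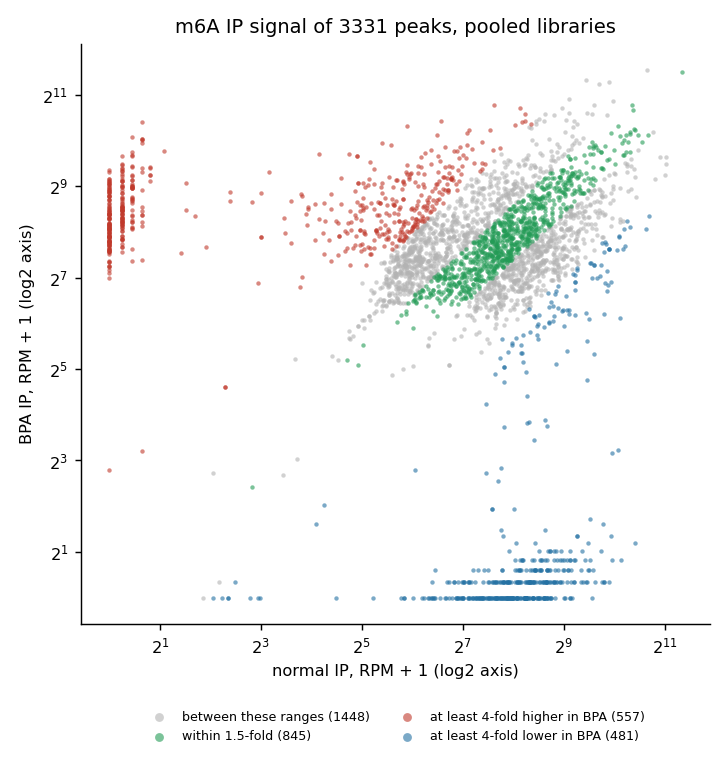
Each point is 1 of 3331 peaks, with its pooled normal IP value on the x axis and its pooled BPA IP value on the y axis, both as RPM + 1 on log2 axes; colours give the 4 classes. The 557 higher peaks (red) form a band at the left edge, where 121 have no normal read, and a cloud above the diagonal; the 481 lower peaks (blue) lie mostly along the bottom, where 175 have no BPA read.

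**Figure D2:**
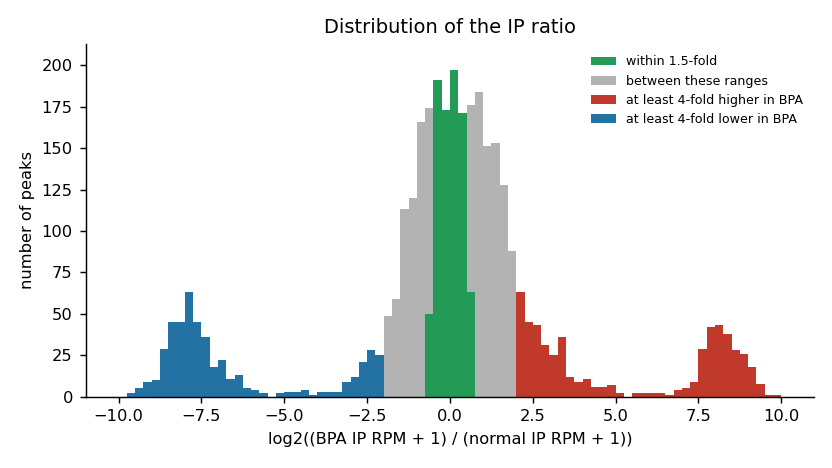
The number of peaks (y axis) is plotted by log2((BPA IP + 1)/(normal IP + 1)) (x axis), coloured by class. A broad central group with a median of 0.18 is separated from a group on each side by a thinly filled stretch that holds the 36 higher and 19 lower peaks between 16- and 64-fold.

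The 4-fold line ran through the edge of the central group. The members nearest to it, named after their values were seen, were Vps26a (326.53 RPM in normal IP and 1309.5 RPM in BPA IP) and Fkbp15 (56.27 and 228.23 RPM) just inside the higher class, and Eprs (318.02 and 1265.74 RPM) just outside. On the lower side Col1a1 (868.35 and 216.2 RPM) and Ahcy (1212.1 and 300.89 RPM) were just inside and Rac1 (772.47 and 193.94 RPM) just outside. Counting error alone left 515 of the 557 higher peaks with a 95% interval of the ratio wholly above 4-fold, 463 of the 481 lower peaks wholly below it, and 654 of the 845 peaks wholly within 1.5-fold. These intervals cover counting error only and not the spread between libraries.

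The 14 highest ratios, 1 peak a gene, included 4 pseudogenes and genes of varied function. Slc6a6, the taurine transporter, had 0.56 RPM (3 reads) in normal IP and 1353.5 RPM (5290 reads) in BPA IP at chr6:91732216-91732265 (plus strand, GRCm39), a ratio of 2437 with a counting interval of 833.5 to 11820. Mdc1, a scaffold of the DNA damage response, had 0.56 RPM in normal IP and 1056.19 RPM in BPA IP at chr17:36169142-36169291 (plus strand), a ratio of 1902 (650.3 to 9226). Hnrnpul2, an RNA-binding protein of the DNA damage response, had 0.37 RPM in normal IP and 864.3 RPM in BPA IP at chr19:8811133-8811207 (plus strand), a ratio of 2335 (645.8 to 19290). All 3 peaks rested on 3 or fewer normal reads against 3378 to 5290 in BPA. Yy1, a zinc finger transcription factor, had no read in normal IP and 2569 reads (657.31 RPM) in BPA IP. Its ratio against a floor of 3 counts was 1184, with a counting interval from 961.9 upward. Ppp1r21, an endosomal protein, had none in normal IP and 635.81 RPM in BPA IP, a ratio of 1145 against that floor (interval from 930.4 upward). Naa15, the scaffold subunit of the main N-terminal acetyltransferase, had 0.37 RPM in normal IP and 806.99 RPM in BPA IP. The others of these 14 outside pseudogenes were Rsbn1l, Bod1l, Slc25a30 and 2610008E11Rik, with 0.19 to 0.56 RPM in normal IP and 701.83 to 986.6 RPM in BPA IP.

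The 14 lowest ratios, 1 peak a gene, were likewise in genes of varied function. Gspt1, the release factor eRF3a that ends translation, had 1352.6 RPM (7307 reads) in normal IP and 1.28 RPM (5 reads) in BPA IP at chr16:11050507-11053234 (minus strand), 1057-fold lower with a counting interval of 452.9 to 3257. Nfx1, a transcriptional repressor, had 951.84 RPM in normal IP and 0.26 RPM in BPA IP, a ratio of 3720 (667.6 to 147000). Mlkl, the executioner of necroptosis, had 754.7 RPM in normal IP and no read in BPA IP. It was 983.2-fold lower against a floor of 3 counts, with a counting interval from 799.4 upward. In these 3 peaks the BPA reads numbered 5 or fewer. Dek, a chromatin protein, had 888.9 RPM in normal IP and 0.26 RPM in BPA IP. Cct5, a subunit of the cytosolic chaperonin, had 862.8 RPM in normal IP and 0.26 RPM in BPA IP. Ddx21 and Gtpbp4, both factors of ribosome assembly, had 569.21 and 780.24 RPM in normal IP and 0 and 0.26 RPM in BPA IP. Further peaks of this kind were in Ostc, a subunit of the oligosaccharyltransferase, with 560.14 RPM in normal IP and none in BPA IP, in Dtl, a substrate receptor of a replication-coupled ubiquitin ligase, with 557.37 RPM and none, and in Wwc2, a regulator of Hippo signalling, with 1120.47 and 0.77 RPM. Prep, Nkap, Prrc1 and Paip2b had 661.4 to 986.08 RPM in normal IP and 0.26 to 0.77 RPM in BPA IP.

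**Figure D3:**
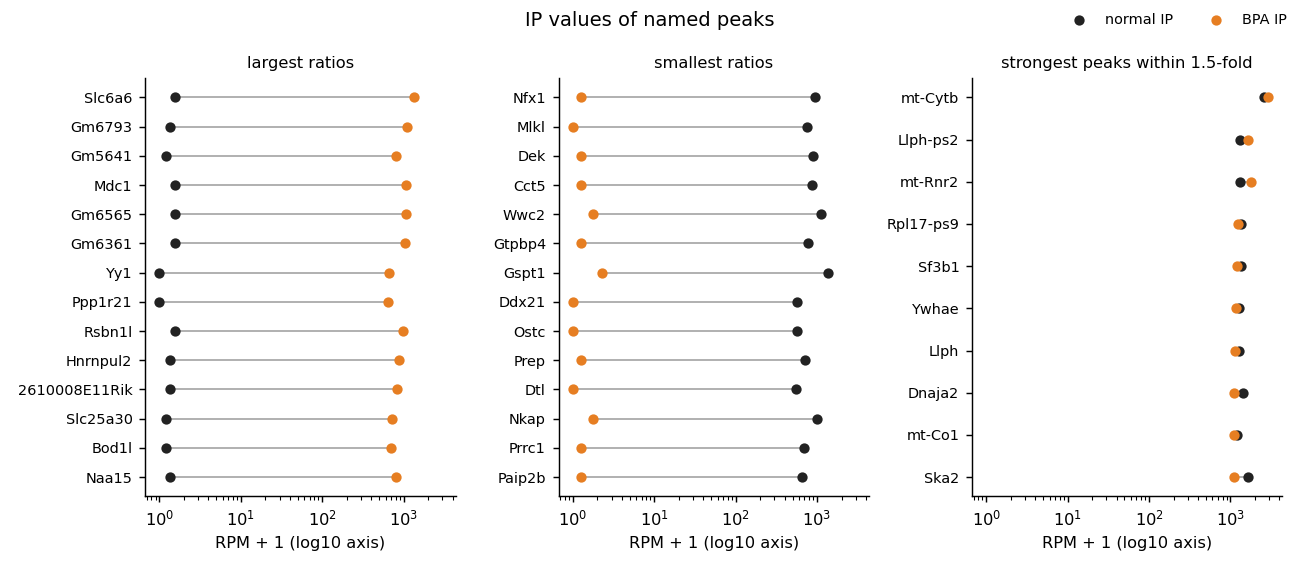
Pooled IP values (x axis, RPM + 1 on a log10 axis) of the 14 peaks with the highest ratio, the 14 with the lowest and the 10 strongest within 1.5-fold (3 panels), with a line joining the normal IP (black) and BPA IP (orange) value of each gene. In the first 2 panels each peak sits at 0 to 1.28 RPM in one condition and between 557.37 and 1353.5 RPM in the other; in the last the points of a gene nearly meet.

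RNA of most of these genes was read in both conditions. Slc6a6 had 3226 and 2378 reads in the normal RNA-seq libraries and 2861 and 1843 in the BPA libraries. Mdc1 had 3501 and 2309 reads in normal and 4160 and 4434 in BPA libraries, and Gspt1 had 5133 and 4311 reads in normal and 4098 and 4850 in BPA libraries. The groups overlapped for Slc6a6 and Gspt1 and did not for Mdc1, whose edgeR adjusted p was 0.353. Dek had 3708 and 3121 reads in normal and 5762 and 3268 in BPA libraries, where the IP value was 0.26 RPM. Rsbn1l was different, with 458 and 149 reads in normal and 16 and 3 in BPA libraries, opposite to its IP difference. Yy1 had 160 and 785 reads in normal and 1333 and 5 in BPA libraries, so its BPA libraries disagreed with each other. Mlkl had 274 and 730 reads in normal and 75 and 7 in BPA libraries. Over the genes of the far higher peaks in the count table, 146 of 231 (63.2%) had at least 100 reads in each of the 4 RNA-seq libraries, as had 213 of 326 (65.3%) genes of the far lower peaks. The share was 67.9% for genes of peaks within 1.5-fold and 63.9% for all genes with a peak.

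Several peaks at the extremes were annotated to pseudogenes. Reads of a pseudogene may come from its parent gene, which was not checked here, so these values are uncertain. Gm6793, Gm5641, Gm6565 and Gm6361 had 0.19 to 0.56 RPM in normal IP and 805.71 to 1088.43 RPM in BPA IP. Their RNA-seq reads ranged widely. Gm5641 had 2 and 1 in normal and none in BPA libraries, and Gm6361 had 1 and 0 in normal and none in BPA libraries. Gm6793 had 498 and 26 in normal and 23 and 7 in BPA libraries, and Gm6565 had 327 and 4 in normal and 1 and 1 in BPA libraries. Peaks annotated to pseudogenes made up 29 of the higher (5.21%), 38 of the lower (7.9%) and 54 of the within-1.5-fold peaks (6.39%), against 6.09% of all.

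Peaks that were past 4-fold with much signal on both sides were the best counted differences. Ivns1abp, an actin-associated kelch protein, had 278.41 RPM in normal IP and 1676.66 RPM in BPA IP, 6.022-fold higher (5.693 to 6.374). Cald1, the actin-binding caldesmon, had 300.62 RPM in normal IP and 1543.1 RPM in BPA IP, 5.133-fold higher (4.859 to 5.425). Tfrc, the transferrin receptor, had 299.51 RPM in normal IP and 1372.95 RPM in BPA IP, 4.584-fold higher (4.335 to 4.849). All 3 counted at least 1504 reads in normal IP. On the lower side of the comparison, Ptgs2, the inducible cyclooxygenase, had 1646.93 RPM in normal IP and 327.76 RPM in BPA IP, 5.025-fold lower (4.739 to 5.333), while its only other peak had 0.19 and 321.87 RPM. Cd63, a tetraspanin of late endosomes, had 1094.37 RPM in normal IP and 241.28 RPM in BPA IP, 4.536-fold lower, and another peak with 52.76 and 224.39 RPM. Ahcy, which clears the S-adenosylhomocysteine that methyltransferases leave, had 1212.1 RPM in normal IP and 300.89 RPM in BPA IP, 4.028-fold lower. Beside Vps26a, a retromer subunit, the remaining 5 peaks chosen for high signal on both sides were in Hmgb1-ps2 and Gm5643 (higher) and AC157548.1, Gm14279 and Gm10243 (lower), which are gene models named as pseudogenes or predicted genes.

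The peaks within 1.5-fold included the strongest in the table. The highest normal IP value was at mt-Cytb, cytochrome b of the mitochondrial genome, with 2586.73 RPM in normal IP and 2920.14 RPM in BPA IP, a ratio of 1.129 (1.101 to 1.157). Sf3b1, a core U2 snRNP splicing factor, had 1357.6 RPM in normal IP and 1210.99 RPM in BPA IP. Ywhae, a 14-3-3 adaptor protein, had 1262.08 RPM in normal IP and 1158.54 RPM in BPA IP. Dnaja2, an Hsp70 co-chaperone, had 1415.72 RPM in normal IP and 1117.6 RPM in BPA IP, and Ska2, a kinetochore subunit, had 1631.38 and 1108.9 RPM. The small ratios of such peaks were still larger than counting error: the interval excluded 1 in 655 of the 845 peaks. The highest BPA IP value of all, at the homeobox gene Meis2, was outside this class, with 1610.83 RPM in normal IP and 2972.08 RPM in BPA IP, a ratio of 1.845 (1.794 to 1.897).

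Among the genes that write m6A, each of the 3 peaks was in the far group, 1 higher and 2 lower. Mettl3, the catalytic methyltransferase, had 306.36 RPM (1655 reads) in normal IP and 0.26 RPM (1 read) in BPA IP at chr14:52534215-52534410 (minus strand). Wtap, which holds the writer complex together, had 433.16 RPM in normal IP and 0.26 RPM in BPA IP at chr17:13193411-13193435 (minus strand). Zc3h13, which keeps the complex in the nucleus, had no read in normal IP and 290.4 RPM in BPA IP. Its ratio against a floor of 3 counts was 522.9, with a counting interval from 424.6 upward. The RNA-seq reads of Mettl3 were 452 and 82 in normal and 830 and 1 in BPA libraries, and those of Wtap were 1025 and 946 in normal and 3632 and 3 in BPA libraries, so in both genes 1 BPA library was above and the other below both normal ones. Mettl14, Fto and Alkbh5 had no peak in the table.

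Of 9 peaks in 7 reader genes, 3 were higher, 4 lower and none within 1.5-fold. Ythdc1, the nuclear reader, had a peak with 419.09 RPM in normal IP and 0.51 RPM in BPA IP, and another, shared with the overlapping Gm43055, with 82.0 RPM in normal IP and 892.44 RPM in BPA IP. Fmr1, the fragile X protein, also differed within the gene, with 502.57 and 0.51 RPM at one peak and 223.61 and 584.9 RPM at the other, normal IP before BPA IP. Its paralog Fxr1 had 79.23 RPM in normal IP and 433.68 RPM in BPA IP, 5.474-fold higher. Igf2bp2, a reader known for stabilising its targets, had none in normal IP and 240.51 RPM in BPA IP. The nuclear RNA-binding proteins Hnrnpc and Hnrnpa2b1 were lower, with 589.58 and 0.26 RPM for the first and 550.52 and 73.18 RPM for the second. Ythdf1, a cytoplasmic reader, had 60.72 RPM in normal IP and 119.23 RPM in BPA IP.

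Map1lc3b, the LC3B protein of the autophagosome membrane, had 246.01 RPM (1329 reads) in normal IP and 200.6 RPM (784 reads) in BPA IP at chr8:122323383-122323482 (plus strand), 1.226-fold lower with a counting interval of 1.122 to 1.341. Its RNA-seq reads were 416 and 350 in normal and 2 and 2 in BPA libraries. The IP value was thus close in both conditions where the RNA-seq groups did not overlap. Of the 2 other core autophagy peaks, Rb1cc1 of the initiation complex had 59.98 RPM in normal IP and 166.82 RPM in BPA IP, and Uvrag of the PI3-kinase complex had 200.66 RPM and none. All 7 peaks of 4 cargo receptor genes had a log2 difference above 0, against 1805 of all 3331 peaks. Of these 7 peaks, 3 were at least 4-fold higher and none lower. Peaks of 1 gene are not independent, and whether the direction is particular to this list was not tested. Sec62, an ER-phagy receptor, had 194.18 RPM in normal IP and 1768.26 RPM in BPA IP, 9.106-fold higher. Phb2, a mitophagy receptor, had 6.66 RPM in normal IP and 116.67 RPM in BPA IP. Ncoa4, the ferritin receptor, had 0.56 RPM in normal IP and 277.61 RPM in BPA IP at one peak and 191.77 and 275.05 RPM at the other 2, which carried identical reads.

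Lysosomal genes spread over every class, with 5 of 21 peaks higher, 4 lower and 3 within 1.5-fold. Laptm4a, a lysosomal membrane protein, had 93.48 RPM in normal IP and 1369.88 RPM in BPA IP, 14.65-fold higher, and Lamp2 had 115.69 RPM in normal IP and 530.14 RPM in BPA IP. Psap, the saposin precursor, had 356.34 RPM in normal IP and none in BPA IP. Ctsl, a cathepsin, had 504.98 RPM in normal IP and 470.53 RPM in BPA IP. Among the 8 peaks of genes that control mTORC1 and AMPK, none was higher, 1 was lower and 3 were within 1.5-fold. Rragc, a Rag GTPase that brings mTORC1 to the lysosome, was the lower one with 269.89 RPM in normal IP and 0.51 RPM in BPA IP, while its anchor Lamtor1 had 248.23 and 359.74 RPM and the mTORC1 substrate Eif4ebp1 423.53 and 288.61 RPM.

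Of 7 peaks in 4 steroidogenesis genes 2 were higher, none lower and 2 within 1.5-fold, and both higher ones were in Prkar1a, the regulatory subunit of protein kinase A. That gene had 34.25 RPM in normal IP and 568.78 RPM in BPA IP at one peak and 0.19 and 568.27 RPM at another, while its remaining peaks had 484.8 and 183.71 RPM and 223.8 and 61.92 RPM. Stard4, a cholesterol carrier, had 355.97 RPM in normal IP and 374.07 RPM in BPA IP, a ratio of 1.051 (0.9811 to 1.125). None of 8 cholesterol and none of 16 fatty acid peaks was past 4-fold in either direction, and 2 and 6 of them were within 1.5-fold. Hmgcs1, an early enzyme of cholesterol synthesis, had 363.56 RPM in normal IP and 372.02 RPM in BPA IP. Acsl4, an acyl-CoA synthetase for arachidonate, had 254.71 and 248.44 RPM, and Scd2, a fatty acid desaturase, had 279.33 and 239.23 RPM.

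In the machinery of translation, 5 of 43 ribosomal protein peaks were higher, 2 lower and 10 within 1.5-fold. Rps7 had 1205.81 RPM in normal IP and 855.34 RPM in BPA IP. Of 59 peaks in translation factors 8 were higher, 7 lower and 17 within 1.5-fold. Eef2, the elongation factor that moves the ribosome, had 898.16 RPM in normal IP and 117.44 RPM in BPA IP, 7.648-fold lower, and the scaffold Eif4g1 had 786.35 and 959.99 RPM. Splicing factors had 14 of 93 peaks higher, 9 lower and 25 within 1.5-fold. Of 30 peaks in mRNA decay and granule genes 4 were higher, 4 lower and 10 within 1.5-fold. G3bp1, which seeds stress granules, had 1108.07 RPM in normal IP and 68.57 RPM in BPA IP, 16.16-fold lower, while its paralog G3bp2 held 6 peaks, 2 of them higher (one with 0.74 and 676.24 RPM) and 2 within 1.5-fold (one with 540.71 and 492.02 RPM). Pan3 of the deadenylase had 98.66 RPM in normal IP and 925.45 RPM in BPA IP, 9.38-fold higher.

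Chaperones and stress response genes held values in both directions. Of 43 heat shock chaperone peaks 8 were higher, 7 lower and 13 within 1.5-fold, the last including the peak of the cytosolic Hsp90aa1, with 1143.06 RPM in normal IP and 984.3 RPM in BPA IP. The other cytosolic Hsp90 gene, Hsp90ab1, had 1015.7 and 888.86 RPM at its strongest peak and 459.44 and 33.77 RPM at a lower one. Of 28 peaks in ER chaperones and the unfolded protein response, 2 were higher, 4 lower and 8 within 1.5-fold. The ER Hsp90, Hsp90b1, had 897.97 RPM in normal IP and 937.99 RPM in BPA IP, and Sec63 of the translocon had 884.27 and 187.8 RPM, 4.709-fold lower. Amino acid and integrated stress response genes had 1 of 26 peaks higher, 2 lower and 7 within 1.5-fold. NRF2 and oxidative stress genes had 2 of 14 higher, none lower and 3 within 1.5-fold. The small Maf partner Mafg was among the higher ones, with none in normal IP and 269.68 RPM in BPA IP.

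Of 12 peaks in p53 target and apoptosis genes, 10 had a log2 difference below 0, against 1526 of all 3331 peaks. In this list 5 peaks were at least 4-fold lower and none was higher, with a median of -1.27 against 0.18 for all peaks. Whether the direction is particular to this list was not tested. Mdm2, the ligase that restrains p53, had 595.32 RPM in normal IP and 105.93 RPM in BPA IP, 5.62-fold lower (counting interval 5.071 to 6.242). Ccng1, cyclin G1, had 262.3 RPM in normal IP and 0.51 RPM in BPA IP. Of the 5 lower peaks, 2 carried identical reads and are 1 measurement. Bak1, a pore former of the outer mitochondrial membrane, had 186.78 RPM in normal IP and none in BPA IP. The inhibitor Xiap, with 399.1 and 147.89 RPM, was between the ranges. The list thus held promoters and inhibitors of death alike.

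Immediate early genes had 10 of 11 log2 differences above 0, against 1805 of all 3331 peaks, and a list median of 0.99. The 11 peaks lay in 6 genes. At least 4-fold higher were 3 peaks in 2 genes, and none was lower. Whether the direction is particular to this list was not tested. Klf6, a zinc finger factor, had 71.45 RPM in normal IP and 801.87 RPM in BPA IP, 11.22-fold higher, and a second peak with 79.78 and 250.49 RPM. Dusp6, the ERK phosphatase, had 74.6 RPM in normal IP and 620.72 RPM in BPA IP, 8.321-fold higher, and a second peak with 61.64 and 259.44 RPM. Its RNA-seq reads went the other way, with 1553 and 592 in normal and 23 and 7 in BPA libraries. Ccn1, a matricellular YAP target, had 169.01 RPM in normal IP and 175.52 RPM in BPA IP. The member below 0 was the kinase Sgk1 with 355.23 and 104.65 RPM.

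In proliferation, 10 of 44 mitosis and cell cycle peaks were higher, 7 lower and 12 within 1.5-fold. Cdc27, a subunit of the anaphase-promoting complex, had 183.81 RPM in normal IP and 1204.59 RPM in BPA IP, 6.553-fold higher. Ccnb1, cyclin B1, had 4.26 and 408.87 RPM at one peak and 44.8 and 236.16 RPM at the other, both higher in BPA IP. Kif20a, a kinesin of cytokinesis, had 282.66 and 0.51 RPM at one peak and 218.99 RPM and none at the other, both lower. DNA replication and repair genes had 3 of 28 peaks higher, 4 lower and 6 within 1.5-fold. The sliding clamp Pcna had 516.09 RPM in normal IP and 522.21 RPM in BPA IP, and the cohesin subunit Rad21 had 736.37 and 160.17 RPM, 4.597-fold lower. Chromatin regulators had 15 of 74 peaks higher, 10 lower and 12 within 1.5-fold. Atrx, a remodeller of repeat-rich chromatin, had 1056.24 RPM in normal IP and 193.43 RPM in BPA IP, 5.461-fold lower.

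Growth factor and MAPK genes had 4 of 21 peaks higher, 3 lower and 6 within 1.5-fold. Fgfr1, a fibroblast growth factor receptor, had none in normal IP and 419.61 RPM in BPA IP. Its ratio against a floor of 3 counts was 755.6, with a counting interval from 613.8 upward. The receptor kinase Axl had 545.15 RPM in normal IP and 558.8 RPM in BPA IP at one peak and 10.18 and 252.53 RPM at another. Of 13 peaks in TGF-beta and BMP genes 1 was higher, 3 lower and 4 within 1.5-fold. Grem1, a secreted BMP antagonist, had 1078.08 RPM in normal IP and 8.44 RPM (33 reads) in BPA IP, 127.7-fold lower (90.83 to 185.7), and the BMP effector Smad5 had 728.22 and 2.3 RPM. WNT, Hippo, Notch and Hedgehog genes had none of 11 peaks higher, 1 lower and 6 within 1.5-fold. The paralogous Hippo effectors stood apart from each other, with 626.78 and 490.49 RPM for Yap1 and 283.03 and 39.66 RPM for Wwtr1, normal IP before BPA IP. Of 6 peaks in nuclear receptor and AHR genes 2 were higher, none lower and 2 within 1.5-fold: Nr2f2, an orphan receptor of Leydig cells, had 165.67 and 729.46 RPM, and the aryl hydrocarbon receptor Ahr had 177.52 and 181.41 RPM.

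Glycolysis and hypoxia genes had 3 of 12 peaks lower and none higher or within 1.5-fold. The lower ones were in enzymes of glycolysis: Pgk1 with 539.78 RPM in normal IP and 0.51 RPM in BPA IP, Pfkl with 345.05 and 0.51 RPM, and Eno1 with 268.04 RPM and none. A second peak of Eno1 had 205.1 RPM in normal IP and 366.39 RPM in BPA IP. Nuclear genes of oxidative phosphorylation had 1 of 13 peaks higher, 1 lower and 3 within 1.5-fold. The adenine nucleotide carrier Slc25a5 was the lower one, with 219.36 and 0.51 RPM, and the ATP synthase subunit Atp5f1 the higher one, with 53.31 and 254.84 RPM. RNAs of the mitochondrial genome had none of 8 peaks past 4-fold. Beside mt-Cytb, mt-Co1 had 1201.92 RPM in normal IP and 1113.0 RPM in BPA IP, and mt-Nd5 had 2067.13 and 793.42 RPM.

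Structural genes spread over all classes. Extracellular matrix and integrin genes had 12 of 96 peaks higher, 11 lower and 29 within 1.5-fold, and actin and adhesion genes had 16 of 103 higher, 14 lower and 24 within. The collagen chain Col1a1 had 868.35 RPM in normal IP and 216.2 RPM in BPA IP at 1 of its 4 peaks, at the 4-fold line, and log2 differences from 0.59 to 1.00 at the others. Col1a2 had log2 differences from -0.77 to 0.89 at 3 peaks, so the ranges of both chains overlapped. Myo5a, a vesicle motor, had 135.13 RPM in normal IP and 1141.14 RPM in BPA IP, 8.445-fold higher. Microtubule and motor genes had 17 of 35 peaks within 1.5-fold (48.6%), 4 higher and 1 lower. Tubb5, a beta tubulin, had 641.41 and 464.39 RPM, and Tuba1a, an alpha tubulin, had 382.44 and 492.28 RPM. The kinesin heavy chain Kif5b was among the higher ones, with 0.37 and 564.94 RPM. Whether the 48.6% is particular to these genes was not tested.

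Membrane traffic genes had 16 of 84 peaks higher, 13 lower and 22 within 1.5-fold, with the SNARE Vamp3 at 1094.74 RPM in normal IP and 235.65 RPM in BPA IP, 4.646-fold lower. Ubiquitin ligases and deubiquitinases had 7 of 49 higher, 5 lower and 17 within. Rnf213, a giant ubiquitin ligase, had 46.83 RPM in normal IP and 956.66 RPM in BPA IP, 20.43-fold higher. Proteasome genes had 1 of 22 higher, 5 lower and 6 within; Psma2, a core alpha subunit, held 3 of the lower peaks, and 2 of these carried identical reads at 597.91 and 118.98 RPM. Nuclear pore and transport genes had 3 of 29 higher, 2 lower and 10 within, with the basket protein Tpr at 90.52 and 635.3 RPM and the filament protein Ranbp2 at 123.65 and 613.55 RPM. Inflammatory genes had 3 of 13 higher, 3 lower and 5 within. Noncoding RNAs had 1 of 12 higher, 2 lower and 2 within, and Gas5, a growth arrest transcript that hosts snoRNAs, had 1100.85 RPM in normal IP and 1095.85 RPM in BPA IP at its strongest peak and 295.25 RPM and none at the peak that overlaps Snord47.

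**Figure D4:**
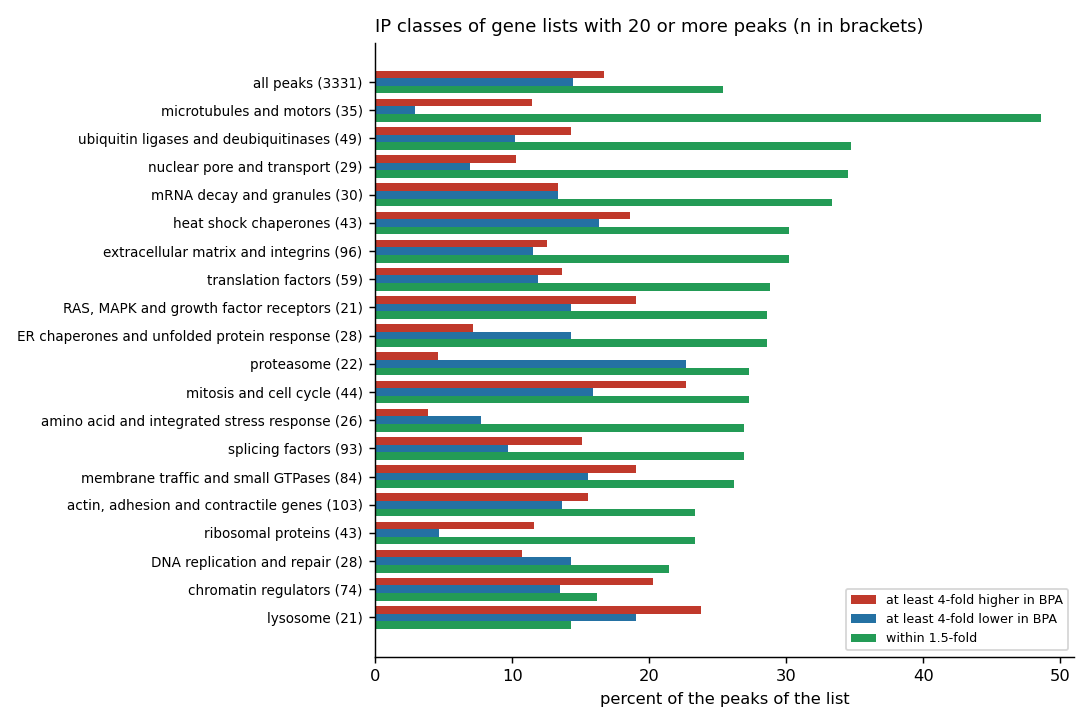
Share of the peaks of a gene list (x axis, percent) that were at least 4-fold higher (red), at least 4-fold lower (blue) or within 1.5-fold (green), for the lists with 20 or more peaks and for all peaks (top row, 16.7%, 14.4% and 25.4%). Microtubule and motor genes have the longest green bar (48.6%, 17 of 35 peaks), and proteasome genes have 5 lower peaks and 1 higher of 22.

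Peaks of one gene often differed from each other. In the 679 genes with 2 or more peaks, 337 (49.6%) had peaks at least 4-fold apart in their IP ratio. Every peak was higher in 37 of these genes, lower in 21 and within 1.5-fold in 42, and 40 genes (5.89%) held both a higher and a lower peak. Peaks close together were more alike: in 216 neighbouring pairs up to 100 bases apart, the median log2 difference was 0.70, 46 pairs (21.3%) were at least 4-fold apart, and none were past 4-fold in opposite directions. In the next 284 pairs by distance, separated by up to 1 kilobase, the median was 1.32 and 14 were opposite. In the 536 pairs further apart it was 1.75 and 17 were opposite. The 122 peaks that carried the same reads as another peak of their gene were kept in these pairs. Their share at each distance was not counted.

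Uso1, a tether of ER-to-Golgi vesicles, had opposite peaks 225 bases apart. At chr5:92349761-92349785 (plus strand) it had 58.31 RPM in normal IP and 1275.47 RPM in BPA IP. At chr5:92350011-92350035 it had 509.05 RPM in normal IP and 0.51 RPM in BPA IP. A peak upstream in the same gene had 582.91 and 616.88 RPM, so all 3 patterns stood in 1 transcript unit, and its RNA-seq reads were 9401 and 4018 in normal and 8423 and 4910 in BPA libraries. Cald1 had 8 peaks, of which 3 were higher (one with 75.34 and 850.48 RPM) and 1 lower, with 722.86 RPM in normal IP and 0.51 RPM in BPA IP at chr6:34750893-34750967. Fn1, the matrix protein fibronectin, had 11 peaks, of which 2 were higher (16.66 and 311.38 RPM, and 47.2 and 419.1 RPM) and 1 lower (282.29 and 0.26 RPM). Its other 8 peaks lay between -1.93 and 0.43 on the log2 scale. Cbx5, the heterochromatin protein HP1 alpha, had 118.66 RPM in normal IP and 0.26 RPM in BPA IP at one peak and 0.56 and 372.02 RPM at another 450 bases away. Hnrnph1, a splicing regulator, had 512.02 and 60.38 RPM, 67.94 and 625.58 RPM, and 647.15 and 612.02 RPM at its 3 peaks. Gspt1 held a higher peak, with 39.06 RPM in normal IP and 401.45 RPM in BPA IP, beside its lower ones.

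**Figure D5:**
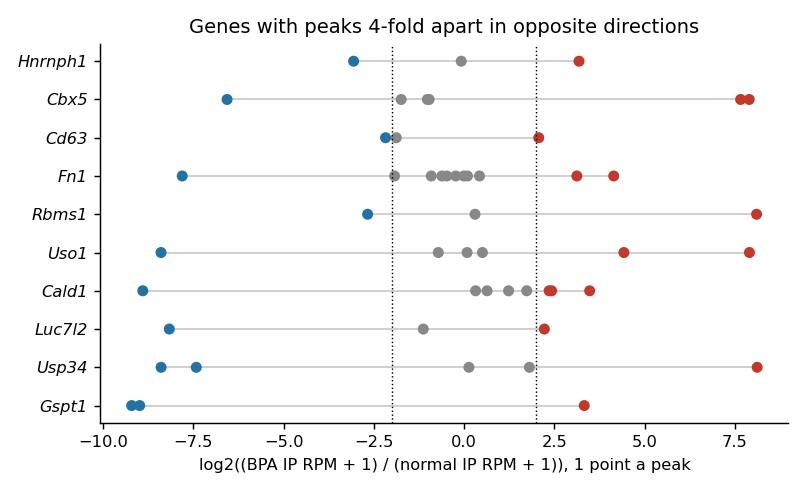
Each point is 1 peak of a gene (rows) at its log2((BPA IP + 1)/(normal IP + 1)) (x axis), for the 10 genes with both a higher (red) and a lower (blue) peak and the largest IP signal; dotted lines mark 4-fold. Uso1, Cald1 and Fn1 also hold peaks near 0 (grey), and the 11 peaks of Fn1 run from -7.81 to 4.14.

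The classes were similar in shape and strand, and no difference was tested. The median peak was 75 bases long in the higher class and within 1.5-fold, and 50 bases long in the lower class, and 99.7% of peak lengths were multiples of 25 bases. Peaks of 25 bases made up 26.6% of the higher, 31.8% of the lower and 23.4% of the within-1.5-fold peaks. Peaks deposited in 2 or more blocks, as across a splice junction, made up 18.0%, 16.6% and 21.4%, and 53.3%, 49.7% and 51.7% lay on the plus strand. By chromosome, the share of higher peaks was greatest on chromosome 9, with 40 of 157 (25.5%), where 17 (10.8%) were lower. The 10 mitochondrial peaks had none past 4-fold and 5 within 1.5-fold. By mean IP level split into 4 equal bins, the lowest bin had 12.8% higher and 21.7% lower peaks and 18.0% within 1.5-fold, and the highest had 12.8%, 9.0% and 30.3%. Since the mean is made of the values compared, these shares are a description only.

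The gene-level RNA-seq counts, which the classes did not use, were tested with edgeR. The RNA-seq libraries were taken to be the input libraries of the peaks. Their counts are therefore not a separate assay from the input. Library totals were 10455643 and 7517482 reads in normal and 8813870 and 6305121 reads in BPA libraries. Whether the 2 libraries of a group came from separate cultures is not stated, so the p-values cover the differences among these libraries alone, and those may be technical. Of 8645 genes tested, none passed an adjusted p of 0.05 (0.0% called; smallest adjusted p 0.329), and without adjustment 117 (1.35%) were higher and 1095 (12.7%) lower in BPA at 0.05. The balance of these unadjusted edgeR counts depended on the fit. With DESeq2 size factors 172 were higher and 1077 lower. With a replicate block 147 were higher and 52 lower, and with no filter on low counts 336 and 302 of 12404 genes. Genes holding both higher and lower peaks were set apart. Of 407 genes with higher peaks none was called by edgeR, 6 higher and 14 lower passed 0.05 without adjustment, and by DESeq2 2 were higher and 10 lower. Of 357 genes with lower peaks none was called by edgeR, 7 higher and 5 lower passed it unadjusted, and by DESeq2 2 were higher and 1 lower. Over all genes DESeq2 called 45 (0.521%) higher and 221 (2.56%) lower.

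The median RNA log2 fold change was 0.07 for genes with higher peaks and 0.12 for those with lower peaks, against -0.04 for all tested genes. It was 0.11 for a narrower set of 402 genes with peaks within 1.5-fold (0.12 for all 670 tested genes with such a peak). The signs of the medians of the higher, lower and 402-gene sets depended on the fit. With a replicate block they were -0.16, -0.15 and -0.25, against -0.74 for all tested genes. Without BPA library 1 they were -0.03, -0.30 and -0.02, against -2.95. Without BPA library 2 they were -0.03, 0.08 and -0.09, against -1.14. Each of these medians was above that of all tested genes in the same fit. Both BPA libraries lay above both normal ones in 86 genes with higher peaks (21.1%) and in 64 with lower peaks (17.9%), against 12.8% of all tested. They lay below both in 89 (21.9%) and 59 (16.5%), against 27.2% of all tested. The set of 402 genes with peaks within 1.5-fold had 17.9% above and 18.2% below, and all 670 tested genes with such a peak 19.9% and 18.1%. All tested genes with a peak had 18.6% and 19.3%, so the distance from all tested genes was shared by the classes. Large gaps also stood between the 2 BPA RNA-seq libraries: of 1585 genes with a peak and at least 500 reads in one BPA library, 78 (4.92%) had 3 or fewer in the other, against 12 of 1705 (0.704%) between the normal libraries. Over all genes such gaps were more frequent, with 763 of 4390 (17.4%) between the BPA and 97 of 4537 (2.14%) between the normal libraries. Whether the pooled MeRIP libraries differed likewise cannot be seen in pooled values, and the part of this in the far peaks was not tested.

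In the authors' deposited table, which sets IP against input, the log2 fold change had the same sign as the IP difference in 552 of 557 higher and 448 of 481 lower peaks. The 845 peaks within 1.5-fold in IP were listed there as differential too: the authors' deposited table gives 628 of them (74.3%) a positive and 217 a negative value, with a median of 2.17. Over all peaks the authors' deposited table has 2291 positive values (68.8%) and a median of 3.33. Both columns share the IP values, so these counts are a description. The authors' values also rest on the BPA input, which is sparse and was left out here for that reason. Its part in the sign and size of those values was not tested.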

How the data were processed

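Poly(A) RNA was fragmented and part of it immunoprecipitated with an m6A antibody, per the labels' protocols. For IP and input alike, the authors deposited 1 pooled RPM per peak and condition. The sources used here do not give the peak caller. The gene table holds read counts as deposited; its 4 columns, headed by condition and number without the assay, were taken as RNA-seq. The log2 fold change and the p-value with its false discovery rate (at most 0.01472) were deposited by the authors. The submitters' processing notes name DESeq2 1.38.3, featureCounts 2.0.1, HISAT2 2.2.1 and fastp 0.20.1 and the builds GRCm39 and GRCh38, with no role for each. Peaks were read as GRCm39, since 11.3% of 3176 lay inside their gene in a GRCm38 table. No per-sample column was left unused. Exons and UTRs were not analysed here. Some list members are not reported here.

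Each IP value was a whole multiple of 1 read in 100% of peaks (within 0.1 read), with 5402180 reads (normal) and 3908360 reads (BPA) behind the scale. The recovered reads gave exact conditional 95% intervals and, where a column held 0, ratios against a floor of 3 counts per column. No count test was possible on 1 pooled column per condition. A pseudocount of 1 RPM was added before log2. The p-values, which the authors adjusted, select nothing here. In 48 peaks 2 or more gene IDs were given, and such a set was counted as a gene of its own outside the lists. Of the IDs, 2314 of 2331 had a symbol. In 122 peaks (3.66%) another peak of the gene carried identical reads.

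The test of counts was edgeR 4.0.16 under R 4.3.3 (TMM, filterByExpr, robust quasi-likelihood, Benjamini-Hochberg over 8645 genes), with DESeq2 1.42.0 as an alternative, and the IP steps ran in Python 3.11.15. Both were tested on simulated data with little (RNA) or no (IP) spread between libraries. The simulations therefore do not give the power in these data. The genes named were, with 1 peak a gene, the 14 highest and 14 lowest ratios, the 10 strongest peaks within 1.5-fold, the 6 higher and 6 lower peaks with most signal on their weaker side, up to 4 members a list by IP sum, 10 genes with opposite peaks, the highest peak of each column and Map1lc3b, Mettl3, Mettl14, Wtap, Fto, Alkbh5, Star and Cyp11a1. Further list members and further peaks of those genes were picked with their values in view. The peaks compared, the lists and the rule were chosen with earlier results of these data known. Alternatives were other pseudocounts, centring, level and FDR filters, merged or summed peaks and, for RNA, normalization, filter, replicate block and each library left out.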

Additional observations from a re-analysis of the deposited data

How the results depend on the processing

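Pseudocounts of 0.5 and 5 RPM, centring, a mean of at least 10 RPM, a deposited FDR under 0.01, merging overlapping peaks and, chosen after seeing the data, protein-coding genes alone or identical reads counted once left 506 to 557 higher, 414 to 517 lower and 744 to 863 within-1.5-fold peaks. Summing RPM per gene gave 342 higher and 303 lower of 2295 genes. The narrower of 2 other limits for close values held 472 peaks, and the wider one, 2-fold, held 1432. The median log2 difference of 0.18 became -0.0139 when centred on the median of 3273 peaks with at least 50 RPM, a shift of 0.20. Under that centring 110 of 115 named peaks past 4-fold stayed past it, and 83 of 103 named peaks stayed within 1.5-fold.

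No gene with a higher or a lower peak passed edgeR, counting genes that hold both kinds in each set; DESeq2 called 12 and 3. Leaving out each library in turn gave 0 to 86 calls among genes with higher peaks and 0 to 63 among those with lower peaks. The highest of both came without BPA library 1 (86 and 63), and without BPA library 2 they were 10 and 1. Over all genes edgeR then called 1877 of 11088 and 201 of 11129; the cause was not tested. With a replicate block the calls were 0 among genes with higher peaks and 0 among those with lower peaks. The correlation of same-numbered deviations was 0.00409 over 8645 genes. With 2 pairs it cannot show whether the numbers pair the samples. The IP values have 1 pooled column per condition, so neither a block nor a left-out library could be computed for them, and depth limits ratios with 1 to 3 reads on one side to their wide intervals.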
